A study of Homo sapiens with 4 samples.

Results

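The prostate and nuclear long noncoding RNAs (lncRNAs) examined here are 10 genes chosen by name, MALAT1, NEAT1, KCNQ1OT1, PCA3, PCAT1, PCGEM1, SCHLAP1, DRAIC, PCAT6 and ARLNC1. All 10 names were found among the 60606 genes of the count table, and 9 of them passed the expression filter that 19349 genes passed. RNA was sequenced after poly(A) selection from DaroR cells, a line of LNCaP prostate cancer cells that was adapted stepwise to the antiandrogen darolutamide and then kept in it. LNCaP is an established androgen-sensitive line. The siControl group was transfected with a control siRNA and the siLOC730101 group with a pool of siRNAs against the lncRNA LOC730101, with 2 libraries in each group. Both groups were DaroR cells, so no parental cells enter the comparison, which asks how the knockdown changed RNA levels in resistant cells. The labels do not say whether the libraries of a group came from separate cultures, and the p-values measure only the spread between these libraries, which may be technical.

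LncRNAs are transcripts that are not translated. Some act in the nucleus on structure or splicing, and others are known mainly for being restricted to one tissue. NEAT1 is the scaffold of paraspeckles, nuclear bodies that hold RNA-binding proteins. MALAT1 sits in nuclear speckles beside splicing factors. KCNQ1OT1 is the antisense transcript that silences an imprinted domain in cis. PCA3 is a urine marker of prostate cancer, SCHLAP1 marks aggressive tumours and binds the SWI/SNF complex, and PCGEM1, PCAT1, PCAT6, DRAIC and ARLNC1 were described in prostate cancer cells.

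The libraries held 39213498 to 53368158 counts. LOC730101, which the table lists as ENSG00000216775, was counted 2560 and 2370 times in siControl and 633 and 680 times in siLOC730101. Its level fell by 1.56 on the log2 scale (SE, the standard error, 0.12; edgeR adjusted p = 4.34e-06). All log2 differences below are siLOC730101 against siControl, so that a value under 0 is lower with siLOC730101. All 12 prostate luminal markers were tested, with a summed normalized CPM (CPM, counts divided by the library total and put on a common scale, with TMM factors between libraries) of 9366 to 10290 a library. The basal markers KRT5 and TP63 and the leukocyte markers PTPRC and CD3E had 0 counts in all 4 libraries. The 6 basal markers together had a summed normalized CPM of 45.5 to 55.5, nearly all of it from ITGA6, an integrin subunit, at 51.8 in siControl. For 7 neuroendocrine markers the sum was 57.8 to 68.2, mostly from ENO2 at 61.1 in siControl. It was 16.9 to 20.8 for 8 stromal markers and 6.91 to 10.5 for 5 endothelial markers. The share of counts on mitochondrial genes was 2.64% to 3.17%.

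NEAT1, which also has a long exon of 22767 nucleotides, held 77.02% to 80.5% of the summed counts of the 10 lncRNAs in each library. It had a normalized CPM of 381.3 and 383.4 in the siControl libraries and of 321.4 and 261.6 in the siLOC730101 libraries. Both siLOC730101 libraries were below both siControl libraries, and they lay further from each other than the siControl libraries did. In a bulk sample, a lower level in each cell and fewer cells with the RNA cannot be told apart.

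**Figure D1:**
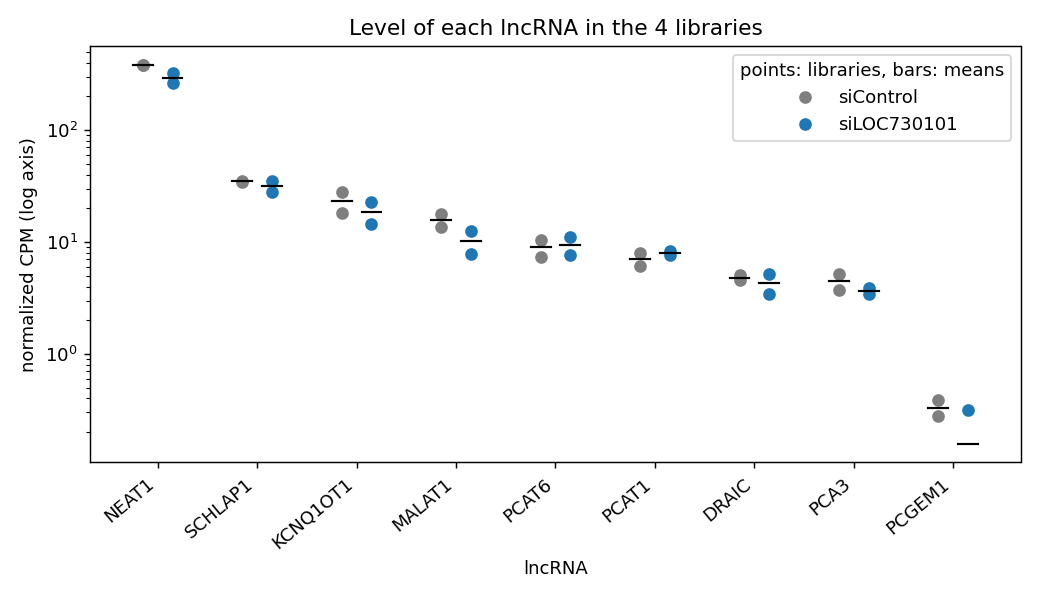
Normalized CPM on a log axis for 9 lncRNAs in the 2 siControl (grey) and 2 siLOC730101 (blue) libraries, with points for libraries and bars for means; ARLNC1 and the 0 of PCGEM1 in siLOC730101 replicate 1 cannot be drawn on this axis. Levels are not per length; NEAT1 lies at 261.6 to 383.4, and the groups are separate for NEAT1 and MALAT1.

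NEAT1 had a fold change on the log2 scale of -0.39 (SE 0.089, 95% interval -0.58 to -0.20). Its unadjusted p was 4.92e-04 and its adjusted p was 0.0865 in edgeR's quasi-likelihood test with Benjamini-Hochberg adjustment over all genes tested, so that it did not pass the threshold of 0.05. It passed in 8 of the 15 alternative analyses, among them DESeq2 (adjusted p = 0.00239), and its log2 fold change was below 0 in all 15. All 15 reuse the same libraries, whose groups did not overlap for NEAT1. The shared direction therefore adds no independent evidence. Its size rested on the siLOC730101 libraries. Without siLOC730101 replicate 1 the log2 fold change was -0.54, and without siLOC730101 replicate 2 it was -0.25. Each of these fits leaves 1 library in a group, whose spread it cannot measure.

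MALAT1 lies downstream of NEAT1 on chromosome 11. It was counted 742 and 835 times in siControl and 517 and 297 times in siLOC730101. Its normalized CPM was 13.7 and 17.8 in siControl and 12.6 and 7.82 in siLOC730101. The groups did not overlap, but siControl replicate 1 and siLOC730101 replicate 1 were close. MALAT1 differed by -0.63 on the log2 scale (SE 0.21, 95% interval -1.06 to -0.19; edgeR adjusted p = 0.235). Without siLOC730101 replicate 1 the value was -1.002, and it was -0.80 without siControl replicate 1 and -0.33 without siLOC730101 replicate 2. These fits too leave 1 library in a group.

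The counts of MALAT1 came from a small part of the transcript. MALAT1 is annotated in the table as 1 exon block on the plus strand, from 65497688 to 65506516 on chromosome 11 of hg38, with a length of 8829 nucleotides. TALAM1, its antisense gene, covers 7205 of these nucleotides (81.6%), the 3′ end included, and other annotated genes bring the covered length to 7815 nucleotides (88.5%). The counting program leaves out by default a read that overlaps exons of more than 1 gene, and the command in the table's header has no option to change this or to use strand. In the table, each of the 2176 genes without an exon base of its own had 0 counts in all 4 libraries, against 45.3% of the other 58430 genes. TALAM1 had 0 and 16 counts in siControl and 0 and 0 in siLOC730101. This left for MALAT1 1014 nucleotides in 2 stretches at its 5′ end, of 320 and 694 nucleotides. Of the genes tested, 98 (0.507%) had more than 80% of their exon length covered by other genes, and the median gene had 0%.

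Shown here is the window around the downstream of 2 MALAT1 start sites in RefSeq, chr11:65498795-65499094 on the plus strand of GRCh38.p14, because it lies inside the 694-nucleotide stretch that could be counted. Capitals mark the first 50 transcribed bases, which begin at 65499045. The stretch goes on to 65499311, beyond which TALAM1 covers MALAT1 from the other strand, so that 267 nucleotides downstream of this start could be counted.
MALAT1 start window: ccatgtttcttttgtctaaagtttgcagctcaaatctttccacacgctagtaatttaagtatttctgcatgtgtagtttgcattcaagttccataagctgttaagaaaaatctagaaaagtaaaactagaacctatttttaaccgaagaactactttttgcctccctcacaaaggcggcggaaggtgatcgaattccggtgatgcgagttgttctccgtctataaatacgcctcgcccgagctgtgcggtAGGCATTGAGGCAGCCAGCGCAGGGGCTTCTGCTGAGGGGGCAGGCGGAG

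**Figure D2:**
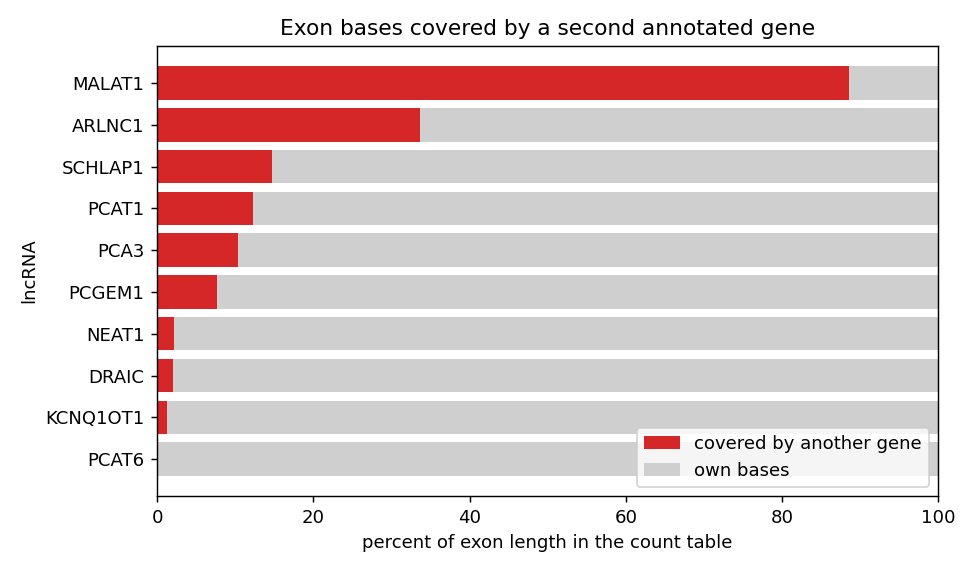
Percent of the exon length of each lncRNA in the count table that is covered by exons of another annotated gene on either strand (red) or by none (grey). MALAT1 stands apart at 88.5%, followed by ARLNC1 at 33.7%, and PCAT6 has 0%.

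Levels were compared between the lncRNAs per length. How much of each lncRNA the poly(A) selection kept was not measured. The order below is therefore one of the RNA sequenced, which may differ from that in the cell. Per kilobase of exon, SCHLAP1 had the highest siControl level, with a normalized CPM per kilobase of 24.3 ± 0.50 (SD, n = 2), ahead of NEAT1 with 16.8 ± 0.064 (SD, n = 2). PCAT6 followed with 5.52 ± 1.35 (SD, n = 2) and MALAT1 with 1.79 ± 0.33 (SD, n = 2). These 4 levels did not overlap between libraries. Over the 1014 nucleotides that could be counted, MALAT1 had 15.6 ± 2.87 (SD, n = 2) per kilobase. NEAT1 had 17.2 ± 0.065 (SD, n = 2) on the same definition and lay within the range of the MALAT1 libraries. Between these definitions MALAT1 and PCAT6 exchanged places in the order, and the other lncRNAs kept theirs. Transcripts from the downstream MALAT1 start site could be counted only over 267 of the 1014 nucleotides. The use of each start site was not measured, so the place of MALAT1 next to NEAT1 holds only for the 1014 nucleotides.

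The other lncRNAs were lower per kilobase of exon. PCAT1 had 0.380 ± 0.069, PCA3 had 0.315 ± 0.071, KCNQ1OT1 had 0.253 ± 0.075, PCGEM1 had 0.193 ± 0.044 and DRAIC had 0.153 ± 0.011 (SD, n = 2 for each). Neighbours in this order from PCAT1 to PCGEM1 overlapped between libraries, and the lower PCGEM1 library, at 0.162, was next to the higher DRAIC library, at 0.161. Relative to the genes tested, SCHLAP1 lay at percentile 90.7 of the siControl level per kilobase, NEAT1 at 85.9 and DRAIC at 9.80. The exon length used here joins the exons of all transcripts of a gene. These are 54 blocks and 31409 nucleotides for DRAIC, and a single block for KCNQ1OT1 (91667 nucleotides) and for NEAT1 (22767 nucleotides). Genes with many or very long annotated transcripts therefore get a low value. Which transcripts of NEAT1 were counted was not measured, so the lead of SCHLAP1 over NEAT1 holds only for exon length joined in this way.

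**Figure D3:**
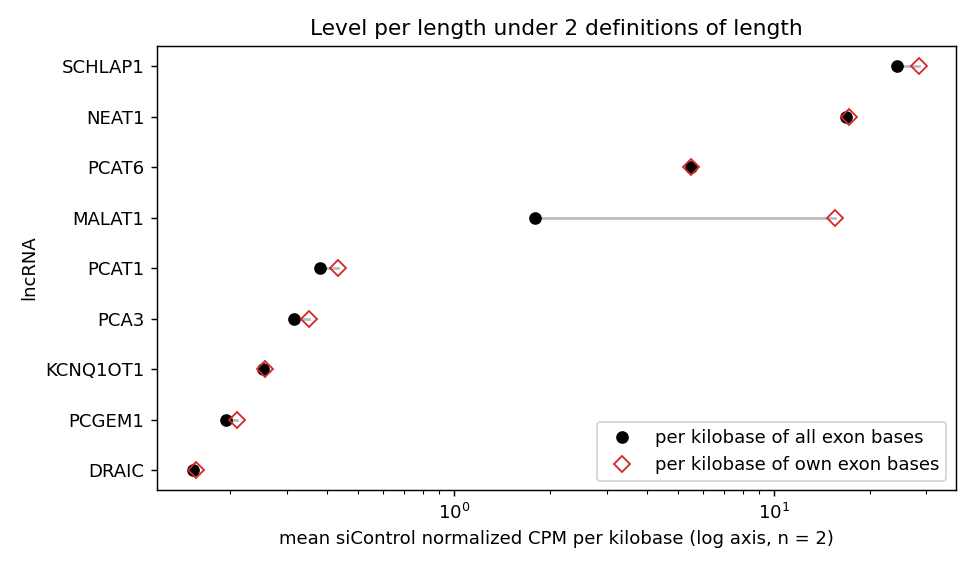
Mean siControl normalized CPM per kilobase on a log axis (n = 2 libraries), per kilobase of all exon bases in the table (black) and of bases that no other gene covers (red diamonds). MALAT1 moves from 1.79 to 15.6, while NEAT1 stays near 17.

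Over the 9 lncRNAs tested, 0 had an adjusted p under 0.05 in edgeR, where 55 of the 19349 genes tested (0.284%) had one, 41 higher and 14 lower with siLOC730101. With scaling by library size only these were 58 higher and 35 lower, and NEAT1 was among them. At an unadjusted p under 0.05 it was 2 of 9, NEAT1 and MALAT1, against 10.8% of all genes. DESeq2 gave an adjusted p to 4 of the lncRNAs and called 1, NEAT1. Both siLOC730101 libraries lay below both siControl libraries in 2 of the 9, where 20.5% of all genes did, and above them in 0 of the 9, where 21.3% did. The first share is near that of all genes and is no result about the lncRNAs. The log2 fold change was below 0 in 7 of the 9 lncRNAs and in 50.4% of the genes tested.

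**Figure D4:**
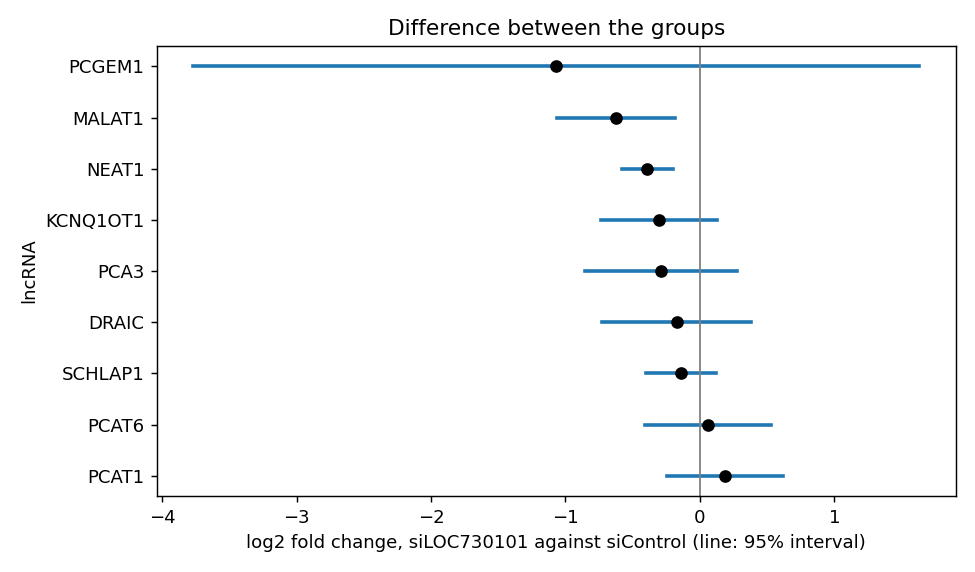
Log2 fold change of siLOC730101 against siControl for the 9 lncRNAs tested, with points for the estimate and lines for the 95% interval from the fit over all genes. The intervals of NEAT1 (-0.58 to -0.20) and MALAT1 (-1.06 to -0.19) lie below 0, and that of PCGEM1 is the widest (-3.77 to 1.63).

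SCHLAP1, the lncRNA known from aggressive tumours, had a normalized CPM of 35.4 and 34.4 in siControl and of 35.3 and 27.9 in siLOC730101. Of the siLOC730101 libraries, 1 was level with siControl and 1 was lower, so that the groups overlapped. Its log2 fold change was -0.14 (SE 0.12, 95% interval -0.40 to 0.12; edgeR adjusted p = 0.748), and it was 0.016 without siLOC730101 replicate 2. SCHLAP1 spans 224.8 kb of chromosome 2 with 1436 nucleotides of exon in 5 blocks, of which 212 are shared with the antisense gene ENSG00000225258 at its 5′ end.

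KCNQ1OT1 was counted 1514 and 858 times in siControl and 940 and 554 times in siLOC730101. Its normalized CPM was 28.0 and 18.3 in siControl and 22.9 and 14.6 in siLOC730101. The spread within each group was larger than the gap between the group means. On the log2 scale the difference was -0.31 (SE 0.20, 95% interval -0.74 to 0.12; edgeR adjusted p = 0.635). It was 0.034 without siControl replicate 1 and -0.66 without siLOC730101 replicate 1, each a fit with 1 library in a group.

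KCNQ1OT1 lies on the minus strand within KCNQ1, the potassium channel gene on the plus strand, and only 121 of its nucleotides are exons of KCNQ1. Counts without strand do not tell KCNQ1OT1 RNA from unspliced RNA of KCNQ1. KCNQ1 had a normalized CPM of 10.7 ± 0.77 in siControl and 12.8 ± 0.52 in siLOC730101 (SD, n = 2 for each), with a log2 difference of 0.27 (SE 0.16, edgeR adjusted p = 0.592). Of 16 genes listed in and around this imprinted domain, 12 were tested and 0 passed the threshold in either direction. The log2 fold change was below 0 in 1 of the 12 and in 50.4% of all genes tested. The median was 0.28, against -0.0021 over all genes tested. Several of the 12 had low siControl means, such as SLC22A18AS with 0.111, TRPM5 with 0.187 and IGF2 with 0.199 normalized CPM. TSPAN32, the gene below 0, was also low at 0.513. Whether KCNQ1OT1 had a part in these values was not tested. The highest levels were those of CD81, a tetraspanin, with a log2 difference of 0.11 (edgeR adjusted p = 0.683), and NAP1L4, a histone chaperone, with 0.0072 (edgeR adjusted p = 0.989). CDKN1C, the CDK inhibitor silenced by this domain on the paternal allele, had 2.25 ± 0.26 in siControl and 3.03 ± 0.71 in siLOC730101 normalized CPM (SD, n = 2 for each), a log2 fold change of 0.43 with an adjusted p of 0.698 in edgeR.

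PCA3 was counted 280 and 176 times in siControl and 159 and 131 times in siLOC730101. Its normalized CPM was 5.18 and 3.76 in siControl and 3.87 and 3.45 in siLOC730101, and the groups overlapped. The difference on the log2 scale was -0.29 (SE 0.27, 95% interval -0.86 to 0.28; edgeR adjusted p = 0.771). PCA3 lies inside PRUNE2, a gene on the opposite strand, on chromosome 9, and 1060 of its 14176 exon nucleotides (7.48%) are also exons of PRUNE2. PRUNE2 had 36.5 normalized CPM per kilobase in siControl against 0.315 for PCA3, and counts without strand do not tell unspliced PRUNE2 RNA from PCA3. The log2 fold change of PRUNE2 was -0.051 (SE 0.080, edgeR adjusted p = 0.887).

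PCAT1, described as a repressor of BRCA2, had a normalized CPM of 7.94 and 6.13 in siControl and of 8.28 and 7.72 in siLOC730101. The groups overlapped, and the log2 fold change was 0.18 (SE 0.20, 95% interval -0.25 to 0.62; edgeR adjusted p = 0.816). Of its 18491 exon nucleotides, 1409 (7.62%) are also exons of LRATD2, a gene on the opposite strand. LRATD2 had 33.9 normalized CPM per kilobase in siControl against 0.380 for PCAT1. Counts without strand do not tell PCAT1 from LRATD2 RNA that lies outside the annotated exons of LRATD2. PCAT6 had a normalized CPM of 10.5 and 7.41 in siControl and of 7.67 and 11.1 in siLOC730101, so that each group held 1 high and 1 low library. Its log2 fold change was 0.060 (SE 0.22, 95% interval -0.40 to 0.53; edgeR adjusted p = 0.96). The nearest tested gene to PCAT6, 2.36 kb away on the opposite strand, was KDM5B, a histone demethylase, with a log2 difference of 0.059 (edgeR adjusted p = 0.86).

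DRAIC, a lncRNA known to be repressed by androgen, had a normalized CPM of 5.05 and 4.57 in siControl and of 3.41 and 5.14 in siLOC730101. The siLOC730101 libraries lay on both sides of siControl. DRAIC had a log2 difference of -0.17 (SE 0.26, 95% interval -0.73 to 0.38; edgeR adjusted p = 0.882), and it was 0.10 without siLOC730101 replicate 1.

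PCGEM1 and ARLNC1 were near or at the limit of detection. PCGEM1, an androgen-regulated lncRNA of prostate cells, was counted 15 and 18 times in siControl and 0 and 12 times in siLOC730101. Its log2 fold change of -1.07 had a 95% interval of -3.77 to 1.63 (edgeR adjusted p = 0.837), and the siLOC730101 libraries differed from each other. With siLOC730101 replicate 1 left out the log2 difference was -0.055, and leaving out replicate 2 instead left the group without a count. ARLNC1 was counted 0 times in both siControl libraries and 0 and 2 times in siLOC730101, and it was not tested. A count of 0 allows up to 3 counts, which is a CPM of 0.0562 in siControl replicate 1 and 0.0734 in siLOC730101 replicate 1; these limits cover counting error only and take each count as independent. Since most low counts were even, they are too low if the mates of a read pair were counted apart. Another annotated gene, ENSG00000286221, shares 33.7% of the exon length of ARLNC1 and had 0 counts in all 4 libraries.

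**Figure D5:**
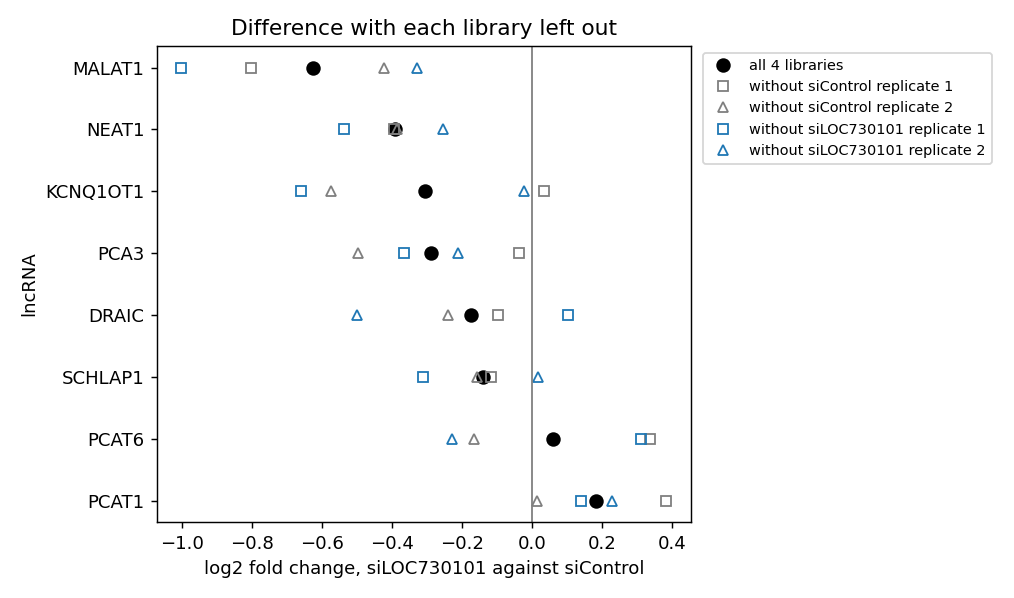
Log2 fold change of 8 lncRNAs with all 4 libraries (black) and with each library left out in turn (open symbols; grey for a siControl library, blue for a siLOC730101 library). MALAT1 and NEAT1, whose groups did not overlap, stay below 0. PCA3 (-0.50 to -0.037) and PCAT1 (0.014 to 0.38) come close to 0, and SCHLAP1, KCNQ1OT1, DRAIC and PCAT6 cross 0 in at least 1.

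The paper proposes that LOC730101 sequesters the miRNA miR-1-3p. It reports a higher miR-1-3p level after the knockdown, complementary sequence in LOC730101, and lower RNA levels of most predicted targets. It states that its own experiments did not show a direct interaction, and it cites a published profiling of human brain tissue that reported one. It also cites work in other cancers in which MALAT1 silenced this miRNA. Matches to the seed of this miRNA were searched in the longest annotated transcript of each lncRNA in a gencode annotation on GRCh37. The mature miRNA is shown first, from RefSeq on GRCh38.p14, with its seed in capitals (bases 2 to 8). Below it are the 7-base matches (ACATTCC, sense strand, in capitals) that MALAT1 and NEAT1 hold, named by their position in the transcript.
hsa-miR-1-3p: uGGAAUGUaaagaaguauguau
MALAT1 7046: agtgacaagaaACATTCCaaac
MALAT1 7267: aaataaaccaaACATTCCattt
NEAT1 8244: aataacattaaACATTCCattc
NEAT1 14331: ccttttcaaatACATTCCtatt
NEAT1 16193: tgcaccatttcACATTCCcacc
NEAT1 20286: gattctctgtcACATTCCacat
NEAT1 21396: gttggcccaacACATTCCccac

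Both matches in MALAT1, at chr11:65272145-65272166 and chr11:65272366-65272387 on the plus strand of GRCh37, were followed by an A, which gives the longest kind of seed site. This held for 2 of the 5 matches in NEAT1, at chr11:65198501-65198522 and chr11:65210543-65210564. MALAT1 held 0.192 matches per kilobase of a transcript of 10434 nucleotides, and NEAT1 held 0.220 per kilobase of 22743 nucleotides. Among 54 lncRNAs similar to MALAT1 in length, 51.9% held a match, and among 12 similar to NEAT1, 6 did, so that holding a match is common at these lengths. The median density of these lncRNAs was 0.080 per kilobase for the length of MALAT1 and 0.022 for that of NEAT1, below the densities of both. These medians lie close to 0 because many of these lncRNAs held no match. How many held as many matches as MALAT1 or NEAT1 was not counted, so no excess is shown. KCNQ1OT1 held 6 matches in 91667 nucleotides, and the other 7 lncRNAs held 0, also ARLNC1 and DRAIC, the longest of these at 9011 nucleotides. A match is a description of the sequence and does not show binding.

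Partners of NEAT1 and MALAT1 were described from lists of paraspeckle and speckle proteins. Of 39 paraspeckle genes tested, 0 passed the threshold in either direction, 17 had a log2 fold change below 0, and the median was 0.0080. NONO, a core paraspeckle protein, differed by 0.00054 on the log2 scale (edgeR adjusted p = 0.999), and SFPQ, its dimer partner, had -0.042 (edgeR adjusted p = 0.905). The most abundant of the list were HNRNPK, which acts in the processing of NEAT1, with 0.11 (edgeR adjusted p = 0.584), and HNRNPA1, a splicing regulator, with 0.13 (edgeR adjusted p = 0.543). Of 25 genes for speckle scaffolds and MALAT1 processing, 0 passed and 14 were below 0, with a median of -0.016. SON and SRRM2, the scaffold proteins of speckles, had log2 fold changes of -0.068 (edgeR adjusted p = 0.843) and -0.13 (edgeR adjusted p = 0.669). METTL16, which binds the 3′ end of MALAT1, had 0.019 (edgeR adjusted p = 0.969).

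Other nuclear lncRNAs were compared with NEAT1 and MALAT1. Of 19 tested, 0 passed the threshold, 15 were below 0, and the median log2 fold change was -0.099. SNHG14, with a siControl normalized CPM of 398.5 ± 11.4 (SD, n = 2), differed by -0.099 on the log2 scale (edgeR adjusted p = 0.693), and TUG1 had -0.076 (edgeR adjusted p = 0.801). At an unadjusted p under 0.05 in edgeR it was 0 higher and 2 lower of the 19, against 10.8% of all genes in either direction. The 2 were OIP5-AS1 and PURPL, which were named after their values were seen. OIP5-AS1 had a normalized CPM of 206.8 and 210.4 in siControl and of 173.1 and 165.8 in siLOC730101, a log2 difference of -0.30 (edgeR adjusted p = 0.115). PURPL had 7.40 and 7.63 in siControl and 5.21 and 3.71 in siLOC730101, a log2 difference of -0.75 (edgeR adjusted p = 0.189). As for NEAT1 and MALAT1, both siLOC730101 libraries lay below both siControl libraries for OIP5-AS1 and for PURPL, which held for 20.5% of all genes. With such shares over all genes, these 2 are no result about nuclear lncRNAs. Beside these values, RNAs that lack a poly(A) tail, a sign of how strict the selection was, had a summed normalized CPM of 41.1 and 64.5 in siControl and of 33.9 and 30.4 in siLOC730101, over 10 listed RNAs of which 6 had 0 counts throughout. Nearly all of it was RN7SL1, the RNA of the signal recognition particle, with a log2 difference of -0.71 (edgeR adjusted p = 0.0778). These were lower in both siLOC730101 libraries, as were NEAT1 and MALAT1, and their part in the result was not tested.

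Of 25 genes tested for proteins that partner prostate lncRNAs, 0 passed the threshold, 16 were below 0, and the median log2 fold change was -0.046. FOXA1, a pioneer transcription factor, had 0.11 (edgeR adjusted p = 0.617). Of 19 androgen response genes, 0 passed and 7 were below 0, with a median of 0.026, and KLK3, which encodes PSA, had 0.15 (edgeR adjusted p = 0.565).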

How the data were processed

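The authors deposited, per the file headers, raw counts per gene name from featureCounts 2.0.1 on the exons of hg38 with gencode version 41. The methods of the paper name hg19 and STAR and the submitters' processing notes name hg38 and BWA; hg38 coordinates of the table are used. Of the counts from 1 to 20 in a library, 66.0% to 70.1% were even; the command in the header sets no paired-end option. LOC730101 was identified by position (RefSeq, chromosome 6, 52664401 to 52669153), where 1 gene of the table lies.

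Counts were filtered (filterByExpr), scaled (TMM) and tested in R 4.3.3 with the quasi-likelihood test of edgeR 4.0.16 with group as the only term; DESeq2 1.42.0 was an alternative. Adjusted p-values are over all 19349 genes tested. Named genes were the members, LOC730101, overlapping and neighbouring genes, list members with an adjusted p under 0.05 or else the 2 most abundant, and the 2 genes of most like profile for each member; the rest were named after their values were seen. The members and lists were chosen with earlier results of these data known. The test was tried on simulated counts. Own exon bases were those that no other gene of the table covers. The pair of libraries of each group differed by more than counting noise (chi-square per degree of freedom of 10.6 and 13.0). Python 3.11.15 was used for overlaps and sequences, and promoter windows were found for 5 members. Alternatives changed the scaling, the filter, the dispersion method and the test, added the replicate number, halved the counts or left out a library; levels per own base were added after seeing the data. Some genes of the lists are not reported here by name.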

Additional observations from a re-analysis of the deposited data

How the results depend on the processing

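With 2 libraries a group, the smallest two-sided p of an exact permutation test for 1 lncRNA is 0.333, so the calls rest on the spread shared across genes, and the number of calls moved with the settings. Over all genes there were 55 calls with 0 of the lncRNAs. There were 140 calls with 1 lncRNA at an adjusted p under 0.1, 93 with 1 for library size only, 437 with 2 without the expression filter, 173 with 1 above a mean normalized count of 50, 111 with 1 with the legacy method off, 148 with 1 for halved counts and 297 with 1 for DESeq2. The replicate number as a term (replicate block) gave 652 calls with 2, NEAT1 and MALAT1. The labels do not say whether same-numbered libraries were paired. Their deviations had a correlation across genes of 0.029, which cannot settle this, since a pairing may act on few genes. With each library left out in turn there were 137 to 1195 calls with 0 to 3 of the lncRNAs, 1195 and 3 without siLOC730101 replicate 1. Among 133 repeated log2 fold changes of the lncRNAs, 115 kept their direction and did not newly pass the threshold, 5 of them from DESeq2 with no adjusted p (PCA3, PCAT1, PCGEM1, DRAIC and PCAT6), 13 passed it newly (8 of NEAT1, 4 of MALAT1 and 1 of KCNQ1OT1) and 5 turned direction. These were KCNQ1OT1 at 0.034 without siControl replicate 1, PCAT6 at -0.16 without siControl replicate 2 and -0.23 without siLOC730101 replicate 2, SCHLAP1 at 0.016 without siLOC730101 replicate 2, and DRAIC at 0.10 without siLOC730101 replicate 1. With each library left out in turn the values ran from -0.66 to 0.034 for KCNQ1OT1, -0.23 to 0.34 for PCAT6, -0.31 to 0.016 for SCHLAP1, -0.50 to 0.10 for DRAIC, -0.50 to -0.037 for PCA3 and 0.014 to 0.38 for PCAT1, the lone library of a group being assumed to vary like the rest. The cause was not tested. Per kilobase of gene body in place of exon, SCHLAP1 had 0.155 and came after NEAT1 with 16.8, PCAT6 with 5.52, MALAT1 with 1.79 and KCNQ1OT1 with 0.253.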

Other observations

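Further prostate lncRNAs were measured beside those above. Of 32 listed names, 27 were in the table and 18 were tested, of which 0 passed the threshold and 10 had a log2 fold change below 0, with a median of -0.028. CTBP1-DT and LINC00963 were the most abundant, at 72.6 ± 3.38 and 78.4 ± 1.90 normalized CPM in siControl (SD, n = 2 for each), with log2 fold changes of 0.0018 (edgeR adjusted p = 0.998) and 0.0087 (edgeR adjusted p = 0.989). LINC00261 and LINC02418 had 0 counts in all 4 libraries.

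The genes with the profile most like NEAT1 over the 4 libraries, by the root mean square difference of centred log2 CPM among 14503 genes, were FAM111B at 0.017 and DTL, a substrate receptor of a ubiquitin ligase, at 0.025. FAM111B had a normalized CPM of 77.4 and 76.2 in siControl and of 65.7 and 53.5 in siLOC730101, and DTL had 42.8 and 41.1 in siControl and 35.0 and 28.2 in siLOC730101. Their log2 fold changes were -0.36 (edgeR adjusted p = 0.154) and -0.41 (edgeR adjusted p = 0.165). For MALAT1 the closest was ANKRD36BP2 at 0.012, with a log2 fold change of -0.70 (edgeR adjusted p = 0.684). For KCNQ1OT1 they were CDH26 at 0.034 and DIO3OS at 0.048. With 4 libraries such likeness is a description of these values.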
